A study of Mus musculus with 37 samples.

Results

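The TaqMan assays miR-15b, miR-16 and miR-195 were followed across 12 mouse stem, progenitor and leukaemic cell populations. They were taken by their exact names from a panel of 459 assays, so 3 of 459 assays are described. The panel was read in 37 quantitative PCR runs on small sorted or aliquoted samples. Muscle gave Myoblast (4 runs, proliferating committed cells of forelimb and hindlimb) and MuSC (4 runs, quiescent satellite cells of the tibialis anterior). Blood gave KSL-B6 (3 runs of Kit+Sca-1+Lin– marrow, a gate of stem and multipotent progenitor cells) and LT-HSC (4 runs, Endoglin+RholowSca-1+Lin– marrow). MLL-Prog and MLL-LSC (3 runs each) were the Kit– and Kit+ leukaemia cells of mice transduced with the MLL-AF10 oncogene. KSL-ETO (3 runs) was the Kit+Sca-1+Lin– gate of AML-ETO9a transgenic mice. KSL-RbTKO (2 runs) was the same gate of Rb family triple knockout mice, and KSL-Mixed (2 runs) that of wild type mice, both of the strain Mixed 129Sv/J:C57Bl6. NSPC-Adult (3 runs) held neurospheres of adult mice, NSPC-P0-Exp (3 runs) neurospheres grown out of newborn cells, and NSPC-P0 (3 runs) the newborn cells as isolated on postnatal day 0, all from the subventricular zone and dentate gyrus. Apart from AML-ETO9a and the knockout, the labels give every genotype as wild type, the MLL-AF10 cells included. The strain is given as C57/Bl6, except for the mixed strain above and for NSPC-Adult runs 2 and 3, given as C57/Bl7 and C57/Bl8. Ages other than newborn and adult, the promoters behind the transgene and the deletion, and the cells per run are not stated in the labels.

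MicroRNAs of the miR-15 family share their seed, the stretch near the 5′ end that pairs with target mRNAs. The family is known for holding back the G1 to S step of the cell cycle, through targets such as cyclin D1, cyclin E and CDK6, and miR-15 and miR-16 are also known to repress the survival gene BCL2. In mice the mature miR-16 comes from a pair of clusters, one with miR-15a inside the long non-coding RNA gene Dleu2 and one with miR-15b inside Smc4, a condensin gene. miR-195 comes from a separate cluster with miR-497, which is known in satellite cells for favouring quiescence.

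The mature sequences are shown because the 3 RNAs share the seed and the differences between them lie outside it. They are RefSeq sequences on build GRCm38.p6, written 5′ to 3′ with the seed, bases 2 to 8, in capitals.
miR-15b: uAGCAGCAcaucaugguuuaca
miR-16: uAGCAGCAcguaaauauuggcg
miR-195: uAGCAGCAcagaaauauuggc
The seed AGCAGCA was held by 10 of the 1679 mature mouse miRNAs listed. miR-15b lies at chr3:69009775-69009796 on the plus strand, and the Mir16-2 copy of miR-16 at chr3:69009918-69009939 on the same strand. Both are inside the span of Smc4, with 66 bases between the hairpins. The Mir16-1 copy lies at chr14:61631936-61631957 on the minus strand, inside Dleu2, and gives the same mature RNA, so the miR-16 assay cannot tell the copies apart. miR-195, the RefSeq entry mmu-miR-195a-5p, lies at chr11:70235062-70235082 on the plus strand, and no other listed gene spans it. Counted from the 5′ end, miR-16 and miR-195 were identical at 19 of 21 bases, with the substitutions G10A and U11G from miR-16 to miR-195. miR-15b was identical to miR-16 at 14 of 22 bases and to miR-195 at 14 of 21. How far each assay also reads the other family members was not tested.

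Each run gave a threshold cycle (Ct) per assay. A lower Ct means more RNA, 1 cycle stands for a 2-fold difference (1 log2 unit) if amplification is complete, and 40 stands for no amplification. An assay counts here as detected below Ct 35. MuSC runs 1 and 2, and runs 3 and 4, were near-identical repeats and were averaged, which left 35 samples, 2 of them MuSC. The labels do not say whether runs of a group came from separate animals, so the tests measure the spread between these samples, which may be technical. Between 61 and 143 assays were detected per run. The markers of the labelled tissues were partly present. miR-206, a muscle miRNA, was detected in every Myoblast and MuSC run, whereas the muscle miRNAs miR-1 and miR-133a were not detected in any MuSC run. The blood miRNA miR-223 came up between Ct 17.3 and 24.6 in all blood and leukaemia runs, while miR-142-5p was undetected in both KSL-RbTKO runs. miR-206 also came up at 31.1 to 33.1 in the MLL-Prog and MLL-LSC runs and at 32.4 to 34.3 in the NSPC-Adult runs. Of the 4 brain assays listed, miR-124a, mmu-miR-124a and mmu-miR-9 were not detected in any of the neural runs. miR-128a was detected in 3 of 3 NSPC-Adult, 2 of 3 NSPC-P0-Exp and 3 of 3 NSPC-P0 runs, but was not confined to neural cells. It was also detected in all MLL-Prog, MLL-LSC, KSL-ETO, KSL-RbTKO and KSL-Mixed runs. A further 2 of 3 KSL-B6, 2 of 4 LT-HSC and 2 of 4 MuSC runs detected it, and no Myoblast run did.

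miR-16 and miR-195 were detected in all 37 runs and miR-15b in 28 of 37. The miR-16 assay ranged between Ct 24.2 in MLL-LSC run 3 and 30.4 in MuSC run 4. The miR-195 assay ranged between 27.7 in MLL-LSC run 3 and 34.4 in both KSL-RbTKO runs. The miR-15b assay had its earliest Ct, 25.5, in MLL-LSC run 2 and gave no amplification in 6 runs, 2 each of MuSC, LT-HSC and KSL-RbTKO. A further 3 runs, MuSC runs 1 and 2 and KSL-Mixed run 4, gave miR-15b only after Ct 35. The 4 populations in which a sample missed miR-15b were also those with the fewest assays detected, 61 to 102 per run against 109 to 143 in the other 8 populations. The part that the amount of input plays in the loss of miR-15b was not tested. miR-16 and miR-195, which came up earlier, were detected in the same runs. With bulk samples of this kind, fewer cells holding a miRNA and less of it per cell cannot be told apart.

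**Figure D1:**
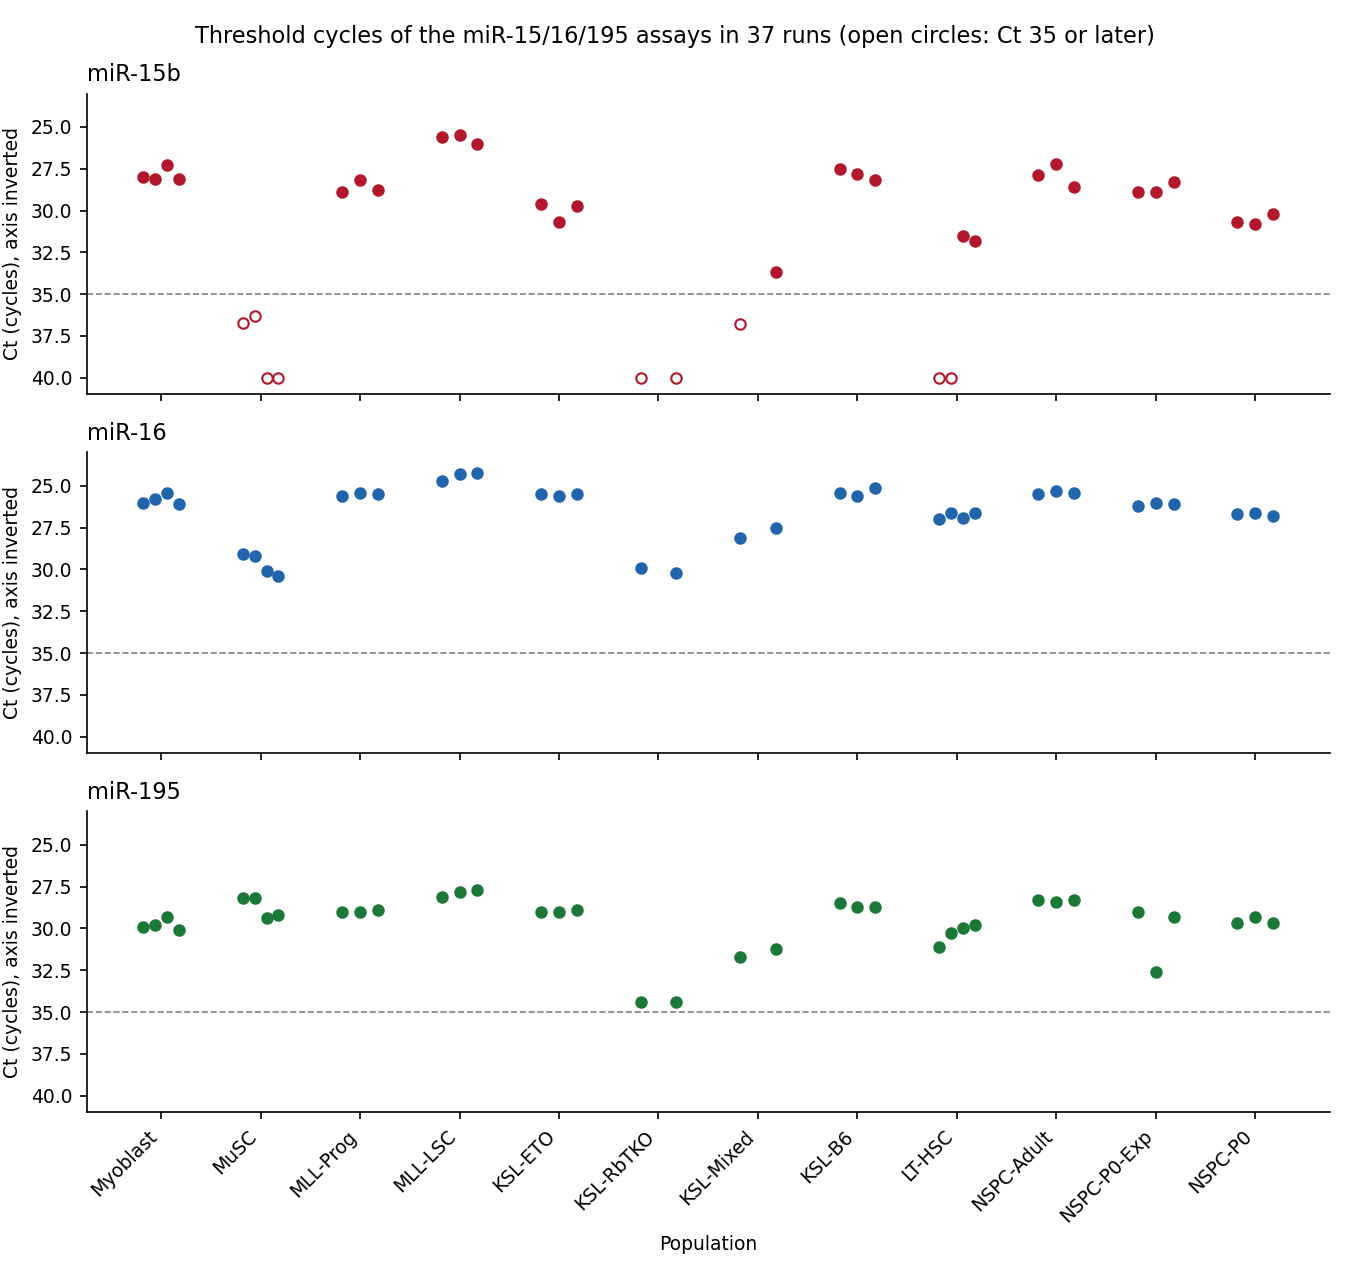
Threshold cycle of each assay in each of the 37 runs, by population, with the axis inverted so that more RNA lies higher and a dashed line at Ct 35; open circles are runs at or past it. miR-15b dropped out in MuSC, KSL-RbTKO, 2 of 4 LT-HSC runs and 1 KSL-Mixed run, whereas miR-16 and miR-195 stayed above the line in all 37 runs.

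To set the populations on 1 scale, the mean Ct of the 28 assays found in all runs was taken as 0 in each sample, so a level is the log2 distance from that mean, and levels under the lowest one measurable in every sample, -5.23, were held at this floor. Levels are compared between populations within an assay and not between assays. All 3 assays varied among the 12 populations beyond the spread within them (limma's moderated F-test, adjusted p = 1.15e-11 for miR-15b, 1.43e-08 for miR-16 and 1.31e-07 for miR-195), as did 79.1% of the 177 assays tested. The population means of miR-15b spanned at least 4.75 log2 units, as its lowest lay at the floor. Those of miR-16 spanned 2.44 and those of miR-195 4.46. The pooled SDs within populations were 0.43, 0.27 and 0.45 in the same order of assays. MuSC, KSL-Mixed and KSL-RbTKO, wholly at the floor for miR-15b, enter its pooled SD and its F-test with an SD of 0.

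miR-15b was highest in MLL-LSC, at -0.48 ± 0.42 (SD, n = 3), then in Myoblast, at -1.64 ± 0.21 (SD, n = 4). The MLL-LSC samples lay above those of every other population. The Myoblast samples lay above those of the next by mean, NSPC-P0-Exp. However, the lowest Myoblast sample, -1.81, lay below the highest NSPC-Adult sample, -1.73. NSPC-P0-Exp, NSPC-Adult, MLL-Prog and KSL-B6 followed between -2.36 and -2.68, with overlapping samples. NSPC-P0 and KSL-ETO lay at -3.63 and -3.74, LT-HSC at -4.68, and MuSC, KSL-Mixed and KSL-RbTKO at the floor, where no order can be read.
miR-16 moved least. Its highest mean was 1.09 ± 0.40 (SD, n = 4) in LT-HSC and its lowest -1.34 ± 0.68 (SD, n = 2) in MuSC, and 10 of the 11 neighbouring pairs in this order overlapped. Among the 28 assays found in every run it had the third smallest SD of population means, 0.72 log2 units. On unscaled Ct its rank in the same list was 13, so its evenness is relative to the other assays.
miR-195 was highest in MuSC, at -0.39 ± 0.68 (SD, n = 2), which stood 2.04 log2 units above the next population without overlap. LT-HSC, NSPC-P0, MLL-LSC, KSL-ETO, MLL-Prog and NSPC-Adult followed between -2.43 and -2.90, and each overlapped with its neighbour in that order. KSL-B6, Myoblast and NSPC-P0-Exp lay between -3.48 and -3.68, KSL-Mixed at -4.48 and KSL-RbTKO, the lowest, at -4.85 ± 0.31 (SD, n = 2). The NSPC-P0-Exp mean of -3.68 had an SD of 1.36 (n = 3), as run 2 was held at the floor of -5.23. The highest NSPC-P0-Exp sample lay at -2.7, so the low place of this population depends on run 2.

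**Figure D2:**
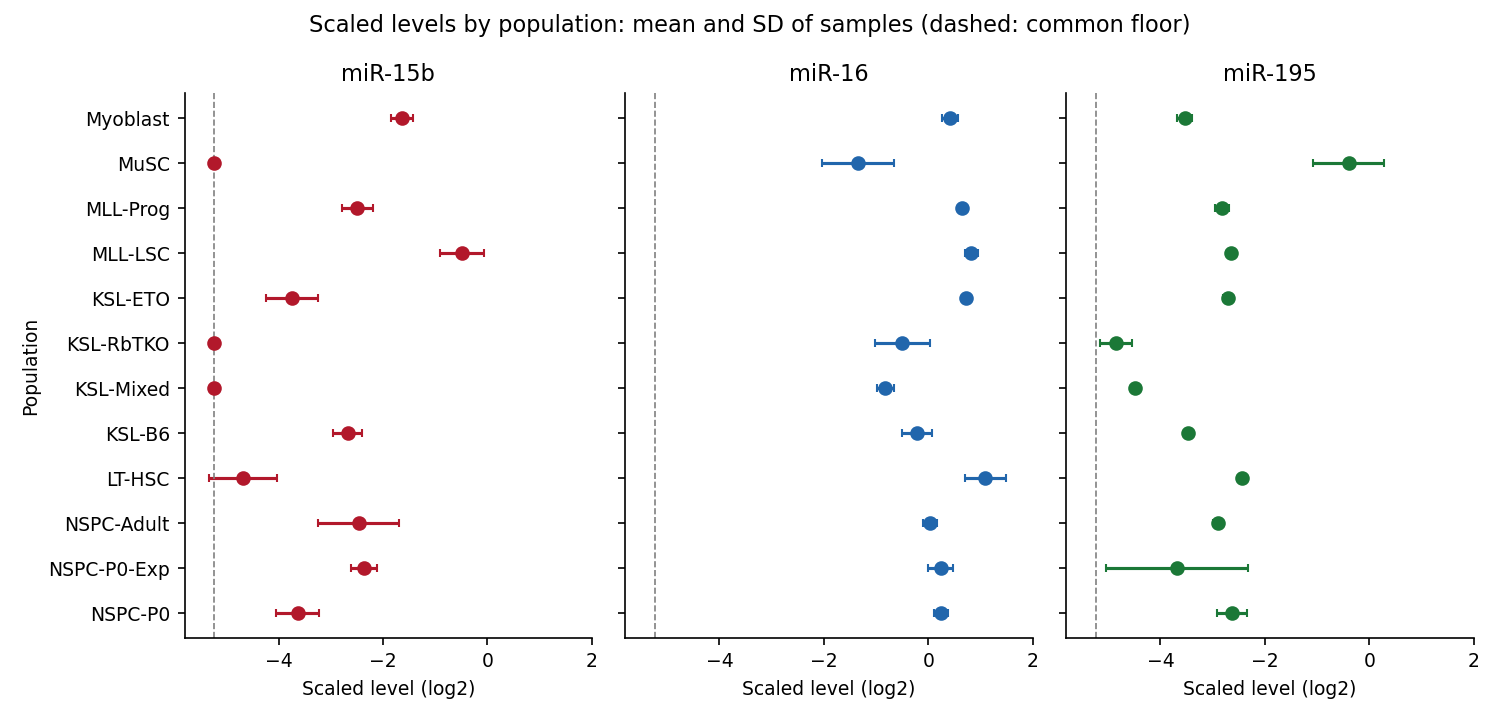
Mean scaled level (log2, points) and SD over samples (bars) of each assay in the 12 populations, with the common floor of -5.23 as a dashed line. MLL-LSC leads for miR-15b and MuSC for miR-195, without overlap with the next population. For miR-16 LT-HSC is highest on this scale, by 0.27 over MLL-LSC and with overlapping samples. The panels share an axis range, but levels are not comparable between assays.

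Myoblast minus MuSC sets dividing, committed muscle cells against quiescent satellite cells, and here the family members did not all change in 1 direction. miR-15b and miR-16 were higher in Myoblast, while miR-195 was lower. For miR-15b the Myoblast runs gave Ct 28, 28.1, 27.3 and 28.1, against 36.7, 36.3, 40 and 40 in the MuSC runs. Every Myoblast run thus detected it and no MuSC run did, and it entered the test only through Myoblast. With MuSC held at the floor it was at least 4.26 log2 units or at least 19.2-fold higher in Myoblast (limma adjusted p = 1.93e-05). The size depends on the floor: it was 3.59 with the floor shared by all populations and 1.23 with a detection limit of Ct 32, both called.
For miR-195 the order was turned round. Its Ct was 29.9, 29.8, 29.3 and 30.1 in Myoblast, against 28.2, 28.2, 29.4 and 29.2 in MuSC, although most assays tested came up earlier in Myoblast. Without scaling 106 assays were called higher and 6 lower there, with a median difference of 3.85. For miR-195 itself the result was as follows. On the scaled level it fell by 3.74 ± 0.25 (SE) log2 units in Myoblast, or 13.3-fold (limma adjusted p = 0.000128), without overlap between the groups. The level was lower in Myoblast under all 15 alternatives, down to 1.03 log2 units lower without scaling, where the call was lost (limma adjusted p = 0.0557).
miR-16 gave Ct 26, 25.8, 25.4 and 26.1 in Myoblast, against 29.1, 29.2, 30.1 and 30.4 in MuSC. Its scaled level was 1.16 ± 0.25 (SE) log2 units higher in Myoblast (limma adjusted p = 0.0128), near the median of 1.11 over all assays tested. The call was lost with quantile normalization, at 0.17 log2 units (limma adjusted p = 0.435), and the difference came to 0.53 without the MuSC sample of runs 3 and 4 (limma adjusted p = 0.05). All 3 members were called in this comparison, where 61.4% of 127 assays were. Markers of other cell types differed in the same runs. Of the 2 endothelial assays, miR-126 was at 30 to 31.2 in Myoblast, against 40 in all MuSC runs, and miR-126* was detected in neither. Of the 4 mesenchymal assays, miR-214 was at 25.6 to 26 in Myoblast, against 31.6 to 35.5 in MuSC, and no other was detected in every run of either. Their part in the results was not tested.

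KSL-B6 minus LT-HSC is the corresponding step in blood, from long-term stem cells to the wider progenitor gate. miR-15b was again higher in KSL-B6, and the results for miR-16 and miR-195 depended on the scaling. miR-15b had Ct 27.5, 27.8 and 28.2 in KSL-B6, against 40, 40, 31.5 and 31.8 in LT-HSC. LT-HSC runs 1 and 2 thus lacked it and runs 3 and 4 did not, and all 4 lay below every KSL-B6 run. The scaled difference was 3.35 ± 0.80 (SE) log2 units, with the undetected runs at the floor (limma adjusted p = 0.0102). miR-15b entered this test only because every KSL-B6 run detected it. It stayed positive under all 17 alternatives but lost its call under 5 of them (limma adjusted p = 0.0509 to 0.0813), which were all assays tested, no floor, quantile normalization, the replicate block and the fit without KSL-B6 run 1 (3.20, adjusted p = 0.0516).
miR-16 had Ct 25.4, 25.6 and 25.1 in KSL-B6, against 27, 26.6, 26.9 and 26.6 in LT-HSC. Relative to the other assays its level fell by 0.60 ± 0.21 (SE) log2 units in KSL-B6 (limma adjusted p = 0.0456), but without scaling it was 1.41 higher there, and the call was lost without any 1 of 5 samples (LT-HSC runs 1 and 2 and each KSL-B6 run, at -0.40 to -0.68, limma adjusted p = 0.0638 to 0.183). For miR-195 the Ct was 28.5, 28.7 and 28.7 in KSL-B6, against 31.1, 30.3, 30 and 29.8 in LT-HSC. Its scaled difference of -0.34 ± 0.13 (SE) did not pass the test (limma adjusted p = 0.0526). It was called lower in KSL-B6 with quantile normalization (-1.25), median centring (-1.08), all populations in 1 fit (-1.04) and without LT-HSC run 4 (-0.49), at limma adjusted p of 0.000107 to 0.0271, and it was called higher, by 1.67, without scaling. The count was 2 of 3 members called, in a comparison in which 64.5% of 121 assays were. Both endothelial assays were detected in every KSL-B6 run, against neither in every LT-HSC run, and their part in the results was not tested.

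Whether a member changed differently in blood and in muscle was tested in 1 fit with an interaction term. The blood step of miR-16 was lower than its muscle step, by a difference of -2.46 ± 0.40 (SE) log2 units (limma adjusted p = 0.000393). The blood step of miR-195 was higher than its muscle step by 2.70 ± 0.32 (SE, limma adjusted p = 4.32e-05). Both differences passed under all 22 alternatives, between -3.06 and -1.38 for miR-16 and between 2.10 and 4.34 for miR-195. For miR-15b the difference of -1.95 ± 0.81 (SE) did not pass (limma adjusted p = 0.0652), and its value depends on the floor in LT-HSC and MuSC. Of the 149 assays in this fit 55% were called, 38.3% lower and 16.8% higher in the blood step, and the median difference was -0.74.

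In MLL-AF10 leukaemia miR-15b separated the Kit– from the Kit+ cells and the other members did not. miR-15b gave Ct 28.9, 28.2 and 28.8 in MLL-Prog, against 25.6, 25.5 and 26 in MLL-LSC. Its level fell by 2.09 ± 0.24 (SE) log2 units in MLL-Prog, or 4.26-fold (limma adjusted p = 0.00125), with no overlap, and it was called lower under all 16 alternatives, at -2.93 to -1.63. miR-16 had Ct 25.6, 25.4 and 25.5 in MLL-Prog, against 24.7, 24.3 and 24.2 in MLL-LSC, and miR-195 had 29, 29 and 28.9 in MLL-Prog, against 28.1, 27.8 and 27.7 in MLL-LSC. Without scaling both were called lower in MLL-Prog, at -1.10, while both scaled differences were -0.26 (limma adjusted p = 0.182 for miR-16, 95% interval -0.62 to 0.11; adjusted p = 0.218 for miR-195, interval -0.66 to 0.15). With quantile normalization miR-16 was called higher in MLL-Prog, at 0.41. Thus 1 of 3 members was called, where 57.4% of 122 assays were. The endothelial assay miR-126 was detected in 1 of 3 MLL-Prog runs, against 3 of 3 MLL-LSC runs, and its part in the result was not tested.

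Against both normal blood populations miR-15b was higher in the leukaemia stem cells. The MLL-LSC runs of 25.6, 25.5 and 26 stood against LT-HSC runs of 40, 40, 31.5 and 31.8, a difference of 5.53 ± 0.81 (SE) log2 units that was called under all 17 alternatives, at 3.73 to 8.18 (limma adjusted p = 0.00196). LT-HSC runs 1 and 2 were again at the floor, and miR-15b entered the test only through MLL-LSC. Of the 123 assays tested 53.7% were called. miR-16 was not called there (0.43 ± 0.20, SE, limma adjusted p = 0.131), though it passed without LT-HSC run 1 at 0.55 and was called lower, at -1.01, with quantile normalization. miR-195 was called higher by 0.49 ± 0.09 (SE, limma adjusted p = 0.00676), but the direction turned with quantile normalization (-0.13), centring on the median (-0.29) and all populations in 1 fit (-0.21). The count was 2 of 3 members.
MLL-LSC minus KSL-B6 gave the only comparison besides the muscle step in which all 3 members were called, with 65.9% of 135 assays called. The difference was 1.82 ± 0.24 (SE) log2 units for miR-15b (limma adjusted p = 0.00105), 0.66 ± 0.17 for miR-16 (adjusted p = 0.0177) and 0.46 ± 0.15 for miR-195 (adjusted p = 0.0355). The calls of miR-16 and miR-195 were both lost without MLL-LSC run 2, KSL-B6 run 1 or KSL-B6 run 2 (limma adjusted p = 0.0537 to 0.0831), and that of miR-195 also without KSL-B6 run 3 (0.102). With the KSL-Mixed runs added to the control, miR-15b was 3.76 higher in MLL-LSC with a wider spread (limma adjusted p = 0.0582).
These 3 comparisons share the MLL-LSC samples, and others share LT-HSC or KSL-B6, so their values are not independent.

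In the altered Kit+Sca-1+Lin– cells the miR-15b result depended on the control. miR-15b had Ct 29.6, 30.7 and 29.7 in KSL-ETO, against 27.5, 27.8 and 28.2 in KSL-B6, and its level fell by 1.68 ± 0.30 (SE) log2 units in KSL-ETO (limma adjusted p = 0.00356). With all 5 wild type KSL runs as the control, it was 0.34 higher in KSL-ETO instead (limma adjusted p = 0.873). miR-16 gave 25.5, 25.6 and 25.5 in KSL-ETO, against 25.4, 25.6 and 25.1 in KSL-B6, a scaled difference of 0.32 ± 0.14 (SE, limma adjusted p = 0.0836). It was called higher in KSL-ETO against all 5 KSL runs (0.71, limma adjusted p = 0.0139), with quantile normalization (0.71, adjusted p = 0.00141), in 1 fit of all populations (0.93, adjusted p = 0.00106) and without KSL-B6 run 3 (0.40, adjusted p = 0.0477), and was -0.17, not called, without scaling. miR-195 gave 29, 29 and 28.9 in KSL-ETO, against 28.5, 28.7 and 28.7 in KSL-B6, a difference of 0.16 ± 0.15 (SE, limma adjusted p = 0.386) that turned to -0.33 without scaling. So 1 of 3 members was called, where 70.4% of 125 assays were.

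For the Rb family knockout, whose proteins hold E2F factors in check, miR-15b could not be compared. Its Ct was 40 and 40 in KSL-RbTKO, against 36.8 and 33.7 in KSL-Mixed, and all 4 samples lay at the floor. miR-16 had 29.9 and 30.2 in KSL-RbTKO, against 28.1 and 27.5 in KSL-Mixed, and did not differ beyond the spread after scaling (-0.04 ± 0.34, SE, 95% interval -1.21 to 1.13, limma adjusted p = 1). miR-195 came up at 34.4 and 34.4 in KSL-RbTKO, against 31.7 and 31.2 in KSL-Mixed. Its samples did not overlap, but the scaled difference of -0.74 ± 0.20 (SE) did not pass with 2 samples a group (limma adjusted p = 0.0964). By limma 0 of the 2 members tested were called, where 30.9% of 94 assays were, and 1 of them, miR-195, had an unadjusted p under 0.05 (0.0441). The KSL-RbTKO runs had the fewest assays detected of all populations, 61 to 65, against 98 to 102 in KSL-Mixed.
The wild type KSL of the different strains also differed in miR-15b. KSL-Mixed gave 36.8 and 33.7, against 27.5, 27.8 and 28.2 in KSL-B6, a difference of -4.48 ± 0.40 (SE) log2 units with KSL-Mixed run 4 at the floor (limma adjusted p = 0.00385). miR-15b entered this test only through KSL-B6. The difference was -2.15 with a detection limit of Ct 32 and -2.55 in 1 fit of all populations, and the call was lost with all assays tested (limma adjusted p = 0.0648). miR-195 gave 31.7 and 31.2 in KSL-Mixed, against 28.5, 28.7 and 28.7 in KSL-B6, and its level fell by 0.78 ± 0.13 (SE, limma adjusted p = 0.0119). Its call was lost without KSL-B6 run 2 (limma adjusted p = 0.0564) or KSL-Mixed run 4 (0.0607). miR-16 was not called, at -0.39 ± 0.17 (SE, limma adjusted p = 0.143), so 2 of 3 members were, where 47% of assays were. Strain, sample set and the smaller number of assays detected in KSL-Mixed (98 to 102, against 123 to 133 in KSL-B6) cannot be told apart.

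In neural cells, growth of newborn isolates as neurospheres came with more miR-15b. Its Ct was 28.9, 28.9 and 28.3 in NSPC-P0-Exp, against 30.7, 30.8 and 30.2 in NSPC-P0. The level was 1.31 ± 0.25 (SE) log2 units higher in NSPC-P0-Exp, or 2.47-fold, without overlap (limma adjusted p = 0.0106). It was positive under all 16 alternatives and lost its call under 1, with all 459 assays tested (limma adjusted p = 0.0739). miR-16 did not differ beyond the spread, with Ct 26.2, 26 and 26.1 in NSPC-P0-Exp, against 26.7, 26.6 and 26.8 in NSPC-P0 (scaled difference 0.04, 95% interval -0.40 to 0.48, limma adjusted p = 0.858). miR-195 had Ct 29, 32.6 and 29.3 in NSPC-P0-Exp, against 29.7, 29.3 and 29.7 in NSPC-P0. The second NSPC-P0-Exp run stood over 3 cycles apart from the others and the difference was -1.29 ± 0.98 (SE, limma adjusted p = 0.33). Without that run it was -0.029 (limma adjusted p = 0.962). The count was 1 of 3 members, where 46.8% of 126 assays were called. Markers of other cell types differed in the same comparison. Of the 5 blood assays 0 were detected in every NSPC-P0-Exp run, against 3 in every NSPC-P0 run. Of the 2 endothelial assays 1 was, against 2 in NSPC-P0, with miR-126 at 26.3 to 29.4 in NSPC-P0-Exp, against 23.1 to 23.4 in NSPC-P0. Of the 4 mesenchymal assays 1 was, against 2 in NSPC-P0, and miR-143 was the one lost. The part of these markers in the results was not tested.
Between neurospheres of adult and newborn mice none of the 3 members was called, where 40.9% of 132 assays were. miR-15b had Ct 27.9, 27.2 and 28.6 in NSPC-Adult, against 28.9, 28.9 and 28.3 in NSPC-P0-Exp, a scaled difference of 0.13 with a 95% interval of -0.81 to 1.06. miR-16 differed by 0.03 (95% interval -0.33 to 0.38), with Ct 25.5, 25.3 and 25.4 in NSPC-Adult, against 26.2, 26 and 26.1 in NSPC-P0-Exp. miR-195 had Ct 28.3, 28.4 and 28.3 in NSPC-Adult and differed by 1.29 ± 1.00 (SE), and by 0.12 without NSPC-P0-Exp run 2 (limma adjusted p = 0.701). The unadjusted limma p values were 0.742, 0.858 and 0.253 for miR-15b, miR-16 and miR-195.

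**Figure D3:**
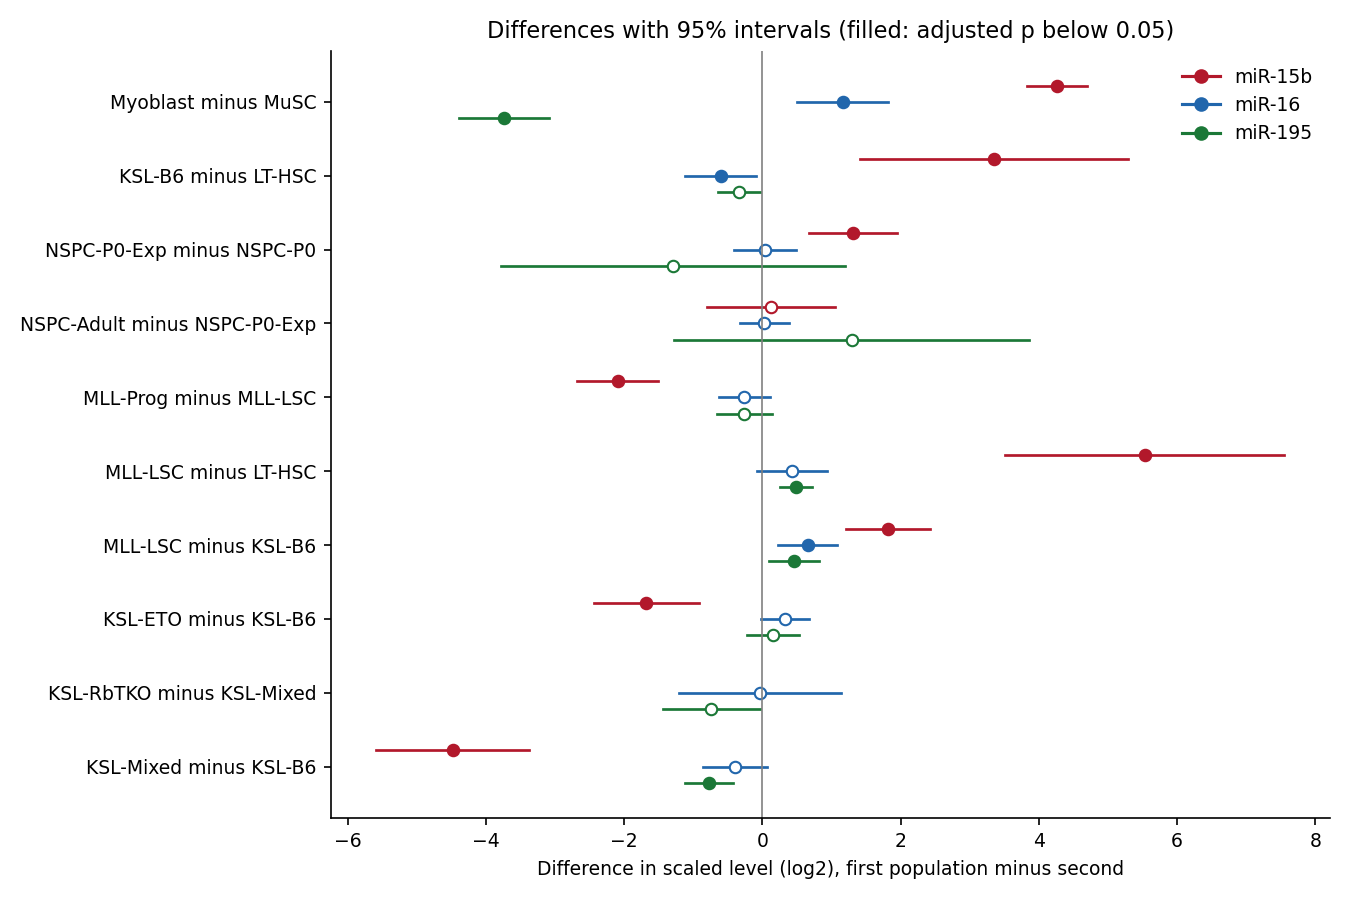
Difference in scaled level (log2, first-named population minus second; points) with 95% intervals (lines) for the 3 assays in the 10 comparisons; filled points passed limma's test after adjustment. miR-15b ranges between 5.53 and -4.48 and was called in 8 comparisons, miR-16 stays within 1.16 of 0, and miR-195 has its largest difference, -3.74, in Myoblast minus MuSC. Between 30.9% and 70.4% of all assays were called per comparison. Against MuSC, LT-HSC and KSL-Mixed miR-15b was tested only through the higher population. Samples of the lower one lay at the floor there, so these sizes, 5.53 and -4.48 included, depend on the floor.

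A difference between assays of the same sample needs no scaling between samples where both are detected. Such differences, taken as log2 units with undetected Ct held at 35, were compared between populations, not between assays, since assays may differ in efficiency. For miR-195 minus miR-16 the 4 Myoblast samples lay between -4.0 and -3.9, against 0.95 in both MuSC samples, a shift of -4.90. The means of the 11 populations other than MuSC lay between -2.87 and -4.35. MLL-Prog and MLL-LSC had the same mean, -3.47, with samples between -3.6 and -3.4. The variation among the 12 populations passed a permutation test over samples (adjusted p = 0.001 over 3 pairs, 35 samples, 100000 permutations). Without the MuSC samples the adjusted permutation p was 0.2, and with them but without NSPC-P0-Exp run 2 it was 1e-05. The test without MuSC kept NSPC-P0-Exp run 2, at -6.6. The SD of NSPC-P0-Exp was 2.09, against at most 0.46 in any other population. No test left out both, so variation among the populations other than MuSC is not decided.
miR-15b minus miR-16 spread more evenly over the populations. The mean was highest in MLL-LSC, -1.30 ± 0.46 (SD, n = 3), followed by Myoblast at -2.05 and KSL-B6 at -2.47. It was -3.13 in MLL-Prog, -3.87 in NSPC-P0 and -4.47 in KSL-ETO. The KSL-B6 samples, at -3.1 to -2.1, all lay above LT-HSC runs 3 and 4, which detected both assays and gave -4.6 and -5.2. KSL-Mixed run 5, which also detected both, had -6.2. The undetected samples give upper bounds, -4.75 or lower in MuSC, -4.8 or lower in KSL-RbTKO, and -8.0 or lower in LT-HSC runs 1 and 2. This pair and miR-195 minus miR-15b passed the permutation test at an adjusted p of 1e-05 each, the smallest that 100000 permutations can give, with and without MuSC. In samples with miR-15b held at Ct 35, the difference carries only the Ct of the other assay, which is not scaled. These values enter both tests, so the tests do not measure the ratio of the members alone.
miR-195 minus miR-15b averaged -1.90 in Myoblast, against 6.25 or higher in MuSC, and -2.17 in MLL-LSC. LT-HSC, KSL-Mixed and KSL-RbTKO also hold lower bounds, so their order relative to MuSC is known only at the limit of Ct 35. Between pairs of populations an exact two-sided permutation test cannot go below 0.0571 for 3 samples against 4, 0.1 for 3 against 3 or 0.1333 for 4 against 2, so none could reach 0.05.

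**Figure D4:**
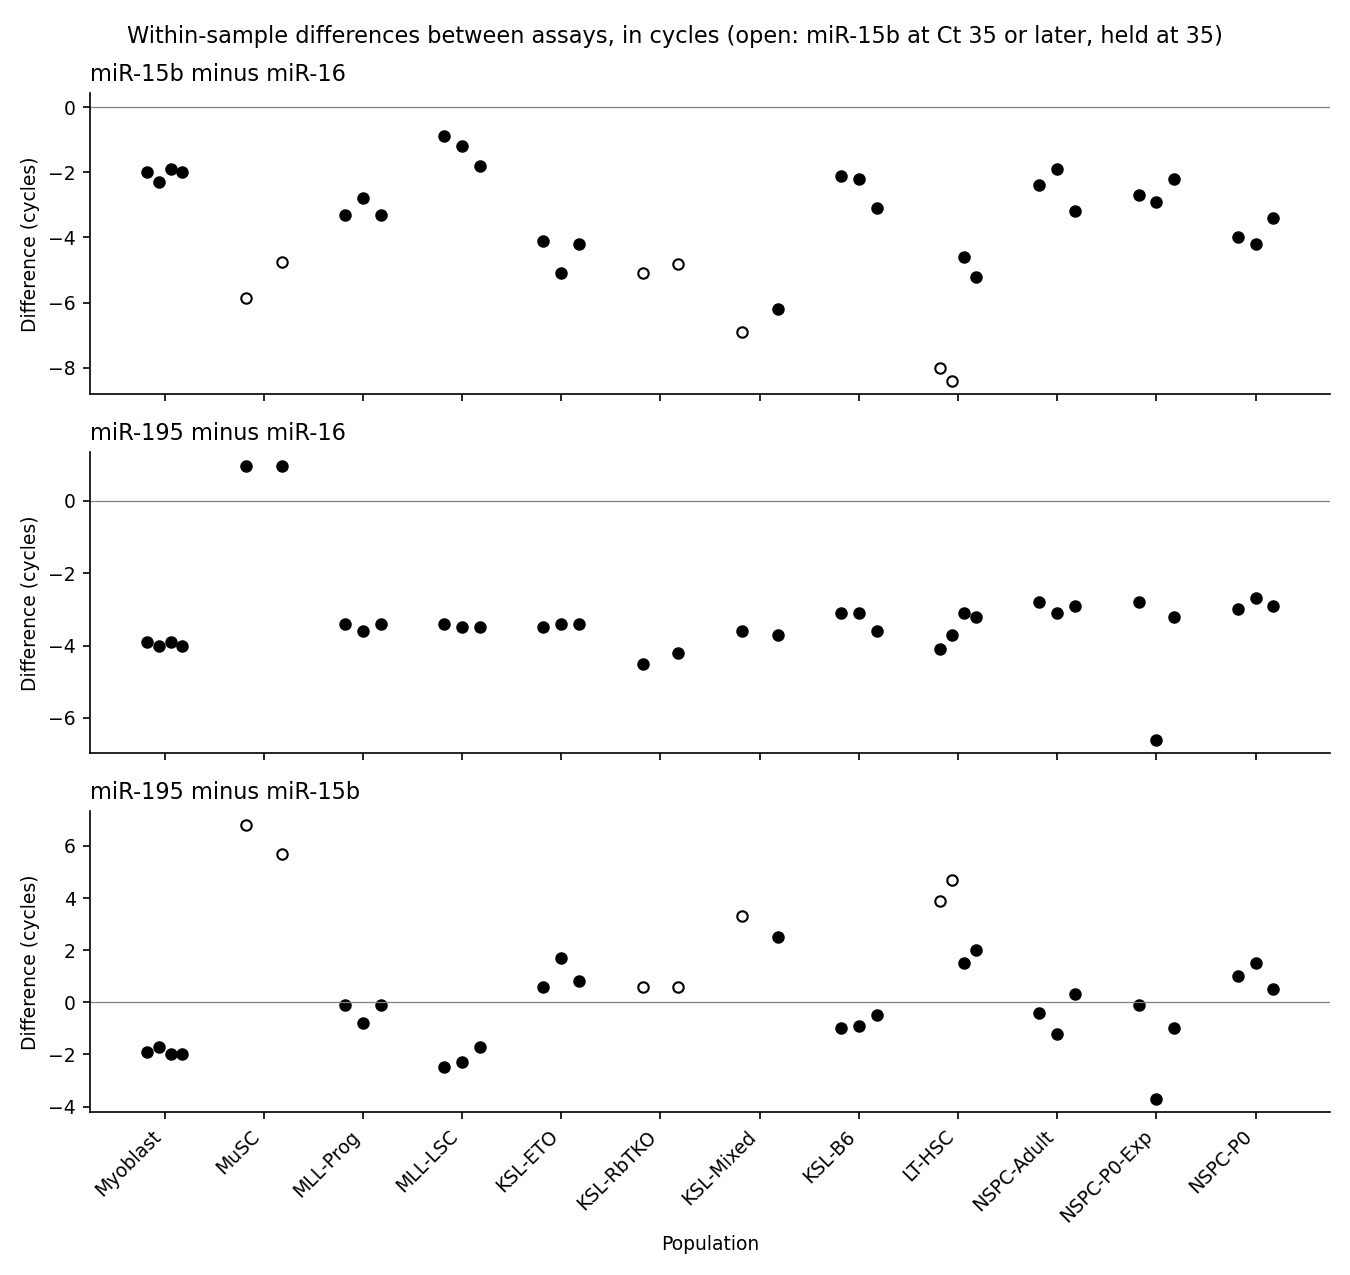
Within-sample difference between 2 assays in cycles (log2 units; a higher value means more of the first-named assay), 1 point per sample, with open points where miR-15b was held at Ct 35. In the middle panel both MuSC samples lie at 0.95 and all others below -2; the lone low point at -6.6 is NSPC-P0-Exp run 2.

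The assays with population patterns most like each member were ranked by Pearson's r over the 12 population means of the scaled level, among 99 other assays that every run detected in at least 6 populations. These values describe the data and carry no test, and samples share their scaling and their floor. For miR-15b they were miR-106a (r = 0.881), mmu-miR-93 (0.859) and miR-93 (0.828), all of the miR-17 seed family, whose clusters are known targets of Myc and E2F. Over the 8 populations in which every run detected miR-15b, r with miR-106a was 0.72. For miR-16 they were miR-30a-5pN (0.725), miR-142-5p (0.634) and miR-186 (0.615), which lay wholly at the floor in 2, 6 and 3 of the 12 populations. For miR-195 they were miR-26a (0.814), mmu-miR-201 (0.662) and hsa-miR-188 (0.655). The likeness to miR-26a, another miRNA known to act against cell cycle genes, fell to 0.515 without MuSC. Without MuSC r was 0.45 for mmu-miR-201 and -0.044 for hsa-miR-188, and both of these assays lay wholly at the floor in 8 of the 12 populations.
The members were less like each other than like these assays. r was 0.558 between miR-15b and miR-16, which share a cluster, -0.029 between miR-16 and miR-195, and -0.014 between miR-15b and miR-195. Without MuSC, a choice made after the values were seen, r between miR-16 and miR-195 was 0.846 over 11 populations, and between miR-15b and miR-16 it was 0.44.

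**Figure D5:**
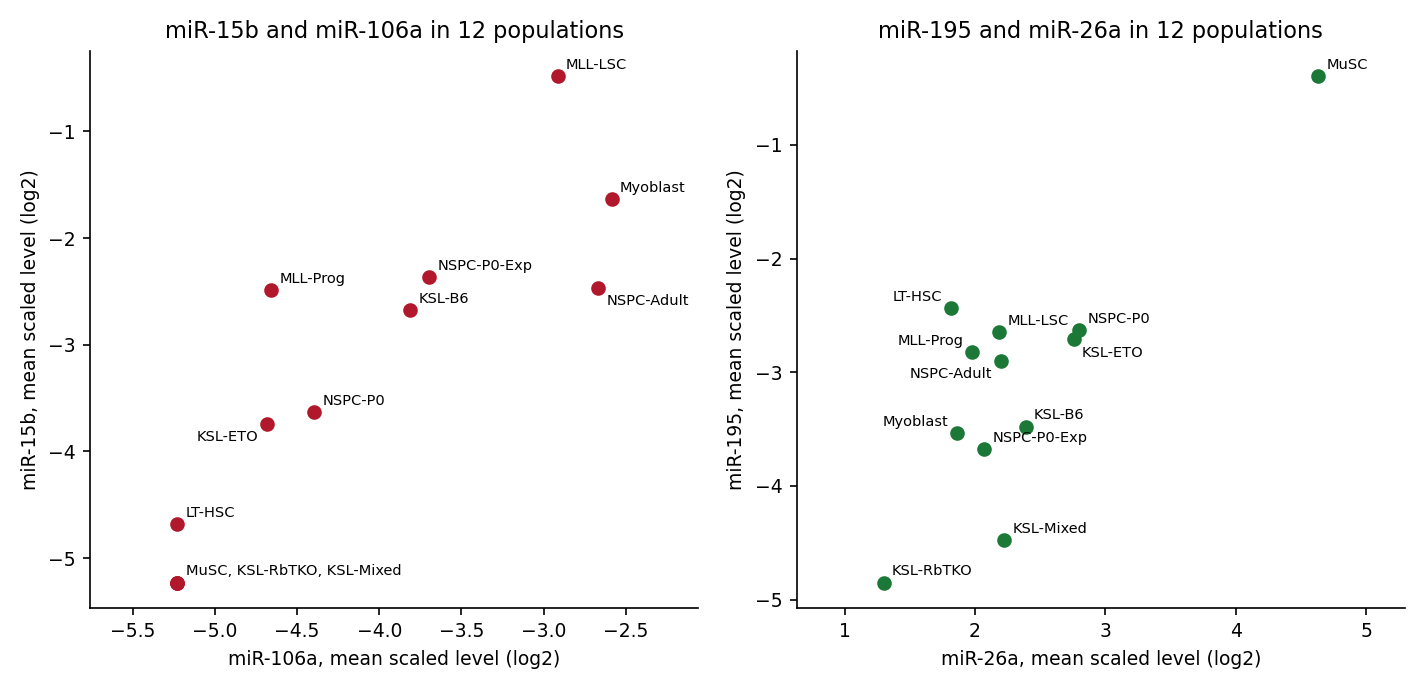
Mean scaled level (log2) of miR-15b against miR-106a and of miR-195 against miR-26a, 1 point per population (n = 12). MLL-LSC and Myoblast lie high and MuSC, KSL-RbTKO and KSL-Mixed at the floor in the left panel (r = 0.881); MuSC stands apart in the right panel (r = 0.814 with it and 0.515 without).

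The panel held 5 further assays named for the seed family, and they were mostly silent. miR-15a, the partner of miR-16 in Dleu2, is shown for comparison with miR-15b, with which it shares 18 of 22 bases.
miR-15a: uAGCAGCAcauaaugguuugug
It was detected in 7 runs, at Ct 31.9, 33, 32 and 34.6 in Myoblast and at 34.8 in LT-HSC run 2, NSPC-P0-Exp run 3 and KSL-B6 run 2, and it lay at 40 in all 4 MuSC runs. Myoblast was thus the only population of the 12 in which every run detected it. On the scaled level, however, miR-15a was tested in Myoblast minus MuSC and not called. Of the 4 family assays tested there 2 were higher and 1 lower, and these were the 3 members. hsa-miR-497, named for the partner of miR-195, was at or after Ct 39.4 in all 37 runs, MuSC included, where miR-195 was highest. Its hairpin lies 241 bases from that of miR-195 in the mouse, and whether an assay with a human name reads the mouse RNA was not tested. hsa-miR-503 was at 40 in every run. The RefSeq mouse miR-503 has the seed AGCAGCG, so it is related but outside the 10 miRNAs counted above. mmu-miR-322 was detected once, at 34.6 in Myoblast run 1, and mmu-miR-424 once, at 33.6 in MLL-LSC run 2.

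Other miRNAs of the cell cycle were counted from lists chosen with earlier results of these data known, so the counts describe and do not test. Of the Myc/E2F-linked assays, from the miR-17, miR-106a and miR-106b clusters, 12 of 14 tested were higher in Myoblast than in MuSC (median 3.45 log2 units, against 1.11 over all assays, of which 46.5% were higher). The lead was miR-93, at least 8.19 log2 units higher with MuSC held at the floor (limma adjusted p = 5.92e-07). miR-93 entered this test only through Myoblast. Both MuSC samples lay at the floor for miR-93 and mmu-miR-93, so neither could come out lower, and the count and median depend partly on the floor. In KSL-B6 9 of 14 were higher than in LT-HSC, where 49.6% of all assays were, and in MLL-LSC 9 of 13 were higher than in LT-HSC, where 39.8% were. With median centring these counts were 6 of 14 and 5 of 13, and with quantile normalization 6 of each. In NSPC-P0-Exp 8 of 14 were higher than in NSPC-P0, where 21.4% of all assays were. None of the list was lower in these comparisons, but the last count changed to 2 higher and 2 lower when samples were centred on the median. Lower calls with none higher were found for 9 of 13 in MLL-Prog against MLL-LSC (29.5% of all assays), 13 of 14 in KSL-ETO against KSL-B6 (38.4%) and 8 of 14 in KSL-Mixed against KSL-B6 (31.3%). With median centring these were 7, 12 and 5 lower, with 1, 0 and 1 higher. In KSL-RbTKO 5 of 12 were lower than in KSL-Mixed (19.1% of all assays), and 0 after centring on the median. The lower calls in MLL-Prog included miR-17-5p, at -2.72 ± 0.15 (SE, limma adjusted p = 0.000187).
The count was mixed in MLL-LSC minus KSL-B6, with 4 higher and 2 lower of 14 (34.8% and 31.1% of all assays). It was mixed too in NSPC-Adult minus NSPC-P0-Exp, where 11 of 14 were higher and 1 lower (25.8% and 15.2% of all assays) and no member was called. With quantile normalization the NSPC-Adult count was 5 higher and 1 lower.
The list of G1-restraining miRNAs, let-7, miR-26 and the miR-34 group, was mixed in the muscle step. Of 16 tested 2 were higher and 5 lower in Myoblast, against 46.5% and 15% of all assays. The list included miR-34aN, higher by at least 2.66 log2 units with MuSC held at the floor, so its size depends on the floor. It also included miR-26a, lower in Myoblast (-3.36 ± 0.16, SE, limma adjusted p = 3.66e-05). Without scaling 12 of the 16 were higher in Myoblast and none lower, and with quantile normalization 6 were higher and 9 lower. In the blood step 6 of 12 were higher in KSL-B6 and 1 lower, near the share of all assays (49.6% higher and 14.9% lower). In MLL-Prog 1 of 11 was higher and 5 lower than in MLL-LSC (27.9% and 29.5% of all assays), and 3 and 3 with median centring. In MLL-LSC 8 of 11 were higher and 1 lower than in LT-HSC (39.8% and 13.8% of all assays), and 3 and 1 with median centring.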

How the data were processed

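Threshold cycles (Ct, in no other unit) of multiplex TaqMan miRNA PCR on 20 to 1000 cells were used as deposited by the authors, per the labels' protocols. The instrument software, threshold setting and any normalization were not stated in the labels. Each of 37 runs held 459 assays, and 1 nameless value was left out. The assays named here, miR-15b, miR-16 and miR-195, and all lists were chosen with earlier results of these data known. MuSC runs 1 and 2, and 3 and 4, were averaged. For each comparison Ct was subtracted from the sample's mean Ct over assays detected (Ct under 35) in every run compared, low levels were held at the lowest level measurable in all samples, and assays detected in every run of at least 1 group were tested with limma 3.58.1 in R 4.3.3, two-sided, with Benjamini-Hochberg adjustment over all tested assays at 0.05. A group wholly at the floor has no spread of its own, so standard errors against it are too small. Figures and permutation tests used Python 3.11.15 with scipy 1.17.1. The method was tested on simulated data.

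Besides the members, the text names assays of the seed family that a run detected or the list holds, at most 2 examples per list by adjusted p, and the 3 assays most like each member. mmu-miR-322 and mmu-miR-424 are named without a sequence. Whether replicate numbers pair samples was checked from the correlation of same-numbered samples' residuals across assays. In MLL-LSC minus LT-HSC all 3 pairs lay above a limit of 0.1, at 0.148 to 0.232, and 2 of the 3 correlated best with their own number. These correlations are weak and the labels state no pairing, so they do not settle whether the samples were paired. The main test was unpaired. In the other 6 comparisons with shared numbers some pair lay under this limit. Alternatives were other detection limits and scalings, no floor, no filter, 1 fit for all populations, a replicate block, another KSL control and leaving out each sample. Centring without the members, and within-sample tests without MuSC or NSPC-P0-Exp run 2, were added after the data were seen.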

Additional observations from a re-analysis of the deposited data

Results flagged for a closer look

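In Myoblast, run 3 gave miR-15b at Ct 27.3, earlier than the other 3 runs at 28, 28.1 and 28.1, which is a gap wide for the range of 4 values. Chance marks about 1 in 20 such groups, and 6 were judged, the 3 assays in Myoblast and in LT-HSC. miR-16 and miR-195 were earliest in the same run, at 25.4 and 29.3, and after scaling the 4 Myoblast levels of miR-15b lay between -1.24 and -0.78.

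The change of miR-16 differed between the blood step (KSL-B6 minus LT-HSC) and the muscle step (Myoblast minus MuSC) by -2.46 log2 units in a test of the difference itself, as did that of miR-195 by 2.70. The median over the 149 assays tested was -0.74.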

How the results depend on the processing

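Log2 differences of single assays kept their direction and their side of the threshold in 244 cases under processing alternatives and in 185 with 1 sample left out, lost the call in 28 and 16, gained it in 19 and 5, and turned round in 26 and 6. Of those that turned round, some were called in the main or the alternative result: miR-16 (1.41) and miR-195 (1.67) in KSL-B6 minus LT-HSC and miR-195 (-0.33) in KSL-ETO minus KSL-B6 without scaling, miR-16 in MLL-Prog minus MLL-LSC (0.41) and in MLL-LSC minus LT-HSC (-1.01) and miR-195 in MLL-LSC minus LT-HSC (-0.13) with quantile normalization, miR-195 in MLL-LSC minus LT-HSC centred on the median (-0.29) and in 1 fit of all populations (-0.21), and miR-15b in KSL-ETO against all 5 KSL runs (0.34). The rest were uncalled on both sides. Median centring gave miR-16 -0.47 in NSPC-P0-Exp minus NSPC-P0, -0.35 in MLL-LSC minus LT-HSC, 0.70 in KSL-RbTKO minus KSL-Mixed and 0.083 in KSL-Mixed minus KSL-B6, and miR-16 and miR-195 0.20 each in MLL-Prog minus MLL-LSC. Quantile normalization gave miR-195 0.19 in MLL-Prog minus MLL-LSC, and miR-16 0.79 and miR-195 0.24 in KSL-RbTKO minus KSL-Mixed. A limit of Ct 32 or 38 gave miR-16 -0.073 and -0.098 in NSPC-Adult minus NSPC-P0-Exp, and Ct 38 gave it 0.10 in KSL-RbTKO minus KSL-Mixed. In 1 fit miR-15b was -0.11 and miR-16 -0.21 in NSPC-Adult minus NSPC-P0-Exp, and miR-16 -0.27 in MLL-LSC minus LT-HSC and 0.33 in KSL-RbTKO minus KSL-Mixed. Without scaling miR-16 was -0.17 in KSL-ETO minus KSL-B6. With 1 sample left out, miR-16 ran between -0.032 and 0.14 in NSPC-P0-Exp minus NSPC-P0, -0.063 and 0.058 in NSPC-Adult minus NSPC-P0-Exp, and -0.30 and 0.35 in KSL-RbTKO minus KSL-Mixed, and miR-15b between -0.19 and 0.48 in NSPC-Adult minus NSPC-P0-Exp. The cause was not tested in any of them. Of the 3 members, the number called moved as follows. KSL-B6 minus LT-HSC gave 1 with a detection limit of Ct 32 or 38 and 0 with no floor, all assays tested or the replicate block, against 2. MLL-LSC minus LT-HSC gave 1 at Ct 32, at Ct 38, with no floor and in 1 fit, against 2. NSPC-P0-Exp minus NSPC-P0 gave 2 without scaling and in 1 fit and 0 with all assays tested, against 1. NSPC-Adult minus NSPC-P0-Exp gave 1 without scaling, against 0. MLL-Prog minus MLL-LSC gave 2 with quantile normalization and 3 without scaling, against 1. MLL-LSC minus KSL-B6 gave 1 with all assays tested, against 3. KSL-ETO minus KSL-B6 gave 3 with quantile normalization, 2 without scaling and in 1 fit, and 0 with all assays tested, against 1. KSL-RbTKO minus KSL-Mixed gave 2 without scaling and 1 against all 5 KSL runs, against 0. KSL-Mixed minus KSL-B6 gave 1 with quantile normalization and in 1 fit and 0 with all assays tested, against 2. Without 1 sample in turn the counts ran between 0 and 3 in KSL-B6 minus LT-HSC, 1 and 3 in MLL-LSC minus KSL-B6, and 1 and 2 in KSL-ETO and in KSL-Mixed minus KSL-B6. Within samples 2 of 3 pairs passed without MuSC, against 3. With the replicate block in KSL-B6 minus LT-HSC, miR-15b gave 3.66 (limma adjusted p = 0.0509) and miR-16 -0.69 (0.117), in MLL-LSC minus KSL-B6 the block ended the call of miR-195 (0.0996). It changed no other member's call. Myoblast and MuSC, KSL-RbTKO and KSL-Mixed, and KSL-Mixed and KSL-B6 allowed no such fit.

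Counts over all assays moved by over 1.5 times in KSL-B6 minus LT-HSC (51 at Ct 32, against 78), NSPC-P0-Exp minus NSPC-P0 (33 with all tested, 37 with the block, against 59), NSPC-Adult minus NSPC-P0-Exp (32 with all tested, 86 without NSPC-P0-Exp run 3, against 54), MLL-Prog minus MLL-LSC (34 with all tested, 39 in 1 fit, against 70), MLL-LSC minus LT-HSC (37 at Ct 32, 107 without scaling, against 66) and MLL-LSC minus KSL-B6 (42 in 1 fit, against 89). For KSL-RbTKO minus KSL-Mixed they ran between 0 with all tested and 61 without scaling, against 29, and for KSL-Mixed minus KSL-B6 between 9 with all tested and 96 without scaling, against 54. Scaling moved the split into higher and lower calls. Without it the split was 106 to 6 in Myoblast minus MuSC (59 to 19 with it), 86 to 11 in KSL-B6 minus LT-HSC (60 to 18), 45 to 22 in NSPC-P0-Exp minus NSPC-P0 (27 to 32), 4 to 61 in MLL-Prog minus MLL-LSC (34 to 36), 93 to 14 in MLL-LSC minus LT-HSC (49 to 17), 0 to 61 in KSL-RbTKO minus KSL-Mixed (11 to 18) 0 to 96 in KSL-Mixed minus KSL-B6 (18 to 36), 61 to 14 in NSPC-Adult minus NSPC-P0-Exp (34 to 20) and 24 to 59 in KSL-ETO minus KSL-B6 (40 to 48). Quantile normalization gave 58 to 34, 51 to 29, 44 to 26 and 58 to 41 in Myoblast minus MuSC, KSL-B6 minus LT-HSC, MLL-LSC minus LT-HSC and KSL-ETO minus KSL-B6, and 44 to 43 for the blood minus muscle step (25 to 57). Centring on the median gave 38 to 22 in KSL-B6 minus LT-HSC, 17 to 51 in NSPC-P0-Exp minus NSPC-P0, 41 to 26 in MLL-Prog minus MLL-LSC, 27 to 21 in MLL-LSC minus LT-HSC, 52 to 29 in MLL-LSC minus KSL-B6 (47 to 42), 10 to 4 in KSL-RbTKO minus KSL-Mixed and 25 to 20 in KSL-Mixed minus KSL-B6. The replicate number, 2 to 4 a group, and the detection limit bound the precision.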
